A study of Mus musculus with 8 samples.

Results

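Gadd45a, Gadd45b and Gadd45g, the D-type cyclin genes Ccnd1, Ccnd2 and Ccnd3, and p53 (Trp53) with 3 of its best known target genes, Cdkn1a, Ccng1 and Mdm2, were examined in mouse embryonic stem cells (mESCs). The cells were either sorted by a KLF3-GFP reporter protein or induced to overexpress KLF3 or GFP. These 10 genes were chosen by name, with earlier results of these data known. All were found, among 13056 genes listed for sorted cells and 14319 listed for overexpressing cells. RNA was sequenced from 8 samples in 4 conditions, with 2 samples each. In the first experiment, 500 KLF3-GFP-positive or KLF3-GFP-negative cells per sample were sorted from a reporter line carrying PB-CAGGS-Klf3-GFP-EF1α-DsRed, in which the constitutive CAGGS promoter drives the N-terminal part of KLF3, lacking its DNA-binding domain, fused to GFP. Both sorted populations carry this transgene, the GFP-positive cells are a very small subset of the culture, and the line was grown from picked DsRed-positive colonies. In the second experiment, codon-optimized Klf3 (KLF3-OE) or GFP (GFP-OE) was induced for 72 h with doxycycline in picked clones of the R26 line, which carries M2rtTA at Rosa26 and an FRT site at Col1a1. Both KLF3-OE and GFP-OE cells therefore carry the transactivator, went through selection on feeder cells and received doxycycline. All cells were of a C57BL/6(F) x 129/sv(M) background and grew in medium with serum and LIF.

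GADD45 proteins are small stress-induced proteins that bind PCNA, the CDK1 and cyclin B1 complex and the kinase MAP3K4, which acts upstream of p38 and JNK. D-type cyclins activate CDK4 and CDK6, which phosphorylate the retinoblastoma protein and let cells pass from G1 into S phase. The p53 protein activates genes such as Cdkn1a, whose product p21 inhibits cyclin-dependent kinases, and Mdm2, whose product marks p53 itself for degradation. Mouse ESCs are known for a short G1 phase and for abundant p53 protein.

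Gadd45g was upregulated in both experiments, 16.1-fold in KLF3-GFP-positive cells and 14.1-fold in KLF3-OE cells. Ccnd2 was 20.0-fold higher in KLF3-GFP-positive cells, while in KLF3-OE cells it passed 2-fold as a plain ratio at very low levels but not on the scale used for calls (difference 0.79, past 2-fold under 4 of 7 alternatives). In KLF3-GFP-positive cells, the other D-type cyclin genes Ccnd1 and Ccnd3 were downregulated. Cdkn1a and Ccng1 were higher in KLF3-GFP-positive cells, whereas Trp53 mRNA was lower and Mdm2 mRNA stayed within 2-fold. In KLF3-OE cells, Gadd45a also passed 2-fold, and no gene of the set was downregulated. Each level is the authors' average FPKM (fragments counted per length of transcript and per size of the library) of 2 replicates. The averages carry no spread between replicates and no read depth, so no difference below has an error or a test. Genes were called on the difference of log2(FPKM + 1) when it passed 2-fold, and this scale understates the change of genes with low FPKM.

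The promoters of Gadd45g and Cdkn1a are shown because the results turn on these genes and because KLF3 and p53 bind DNA, and that of Gadd45b as a relative of Gadd45g without a KLF-type motif in this window. RefSeq promoter sequences (GRCm38.p6) were matched for 8 of the 10 genes, and Ccnd1 and Ccnd2 were not among them. Each sequence below holds the 250 bases before the annotated start, 5′ to 3′ on the strand of the gene. Capitals mark KLF-type motifs (CCNCNCCC on either strand, letters that GC boxes also contain) and TATA boxes (TATAAA on either strand) in the GADD45 genes, and p53 half-sites of 10 bases in Cdkn1a.
Gadd45b, chr10:80929841-80930090, plus strand: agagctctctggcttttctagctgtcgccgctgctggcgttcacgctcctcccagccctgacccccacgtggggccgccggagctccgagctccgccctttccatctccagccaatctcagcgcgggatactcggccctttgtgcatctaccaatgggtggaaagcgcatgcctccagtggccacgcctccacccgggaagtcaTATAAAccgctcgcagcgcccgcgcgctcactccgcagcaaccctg
Gadd45g, chr13:51846425-51846674, plus strand: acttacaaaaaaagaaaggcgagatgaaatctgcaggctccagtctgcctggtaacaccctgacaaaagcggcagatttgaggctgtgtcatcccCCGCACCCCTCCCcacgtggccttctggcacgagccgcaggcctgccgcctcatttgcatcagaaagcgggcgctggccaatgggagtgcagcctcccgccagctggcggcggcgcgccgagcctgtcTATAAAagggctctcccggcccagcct
Cdkn1a, chr17:29090729-29090978, plus strand: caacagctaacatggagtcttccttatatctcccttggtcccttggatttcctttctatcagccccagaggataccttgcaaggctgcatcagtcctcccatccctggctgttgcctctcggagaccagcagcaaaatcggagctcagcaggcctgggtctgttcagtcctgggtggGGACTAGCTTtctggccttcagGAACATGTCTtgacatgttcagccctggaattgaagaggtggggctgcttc

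The Gadd45g window held 2 overlapping KLF-type motifs, 150 and 155 bases before the start, and a TATA box 27 bases before it. Gadd45b had a TATA box 46 bases before its start and no KLF-type motif in its window, and Gadd45a had neither but held 1 p53 half-site. Among 32807 promoter windows of the same length, 45.9% held a KLF-type motif, 12.4% held a TATA box and 7.13% held a p53 half-site. The upstream Cdkn1a window held 2 p53 half-sites, 51 and 73 bases before the start, and 1 KLF-type motif, which is not capitalized. A second annotated Cdkn1a start lies 2790 bases downstream, and its window held 4 KLF-type motifs and no half-site. The windows of Ccng1, Mdm2 and Trp53 held 1 p53 half-site each, and neither Ccnd3 window held any. KLF-type motifs were also found in the windows of Mdm2 (3), Ccng1 (1) and Ccnd3 (2 and 1 in its windows), and not in that of Trp53. A match of letters is a description of the window, and binding was not measured here. Any part of these motifs in the differences between conditions was not tested.

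Gene positions here and below are those the authors listed, and for Gadd45b, Ccnd1, Cdkn1a and Mdm2 they differ from those in GENCODE M21. Gadd45g (ENSMUSG00000021453, GENCODE M21 on mm10, chr13:51846678-51848468, plus strand) was at 1.76 FPKM in KLF3-GFP-negative cells and 28.34 FPKM in KLF3-GFP-positive cells. In the overexpression experiment it was at 1.33 FPKM in GFP-OE cells and 18.69 FPKM in KLF3-OE cells. It was thus among the less abundant genes in both control conditions, above 17.3% of the genes tested in KLF3-GFP-negative cells and above 4.05% in GFP-OE cells. In KLF3-GFP-positive and KLF3-OE cells it was above 73.9% and 66.6% of them. On the log2(FPKM + 1) scale the difference was 3.41 in sorted cells, rank 84 from the highest of 9212 genes tested, and 3.08 in overexpression, rank 14 of 11179. Only 10 of the other genes tested in both experiments had differences at least as large as those of Gadd45g in both.

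Gadd45a (ENSMUSG00000036390, chr6:67035096-67037457, minus strand) did not follow Gadd45g in sorted cells. It was at 13.45 FPKM in KLF3-GFP-negative cells and 13.55 FPKM in KLF3-GFP-positive cells, and the sign of this difference of 0.01 turned under median-ratio scaling, quantile normalization and equal sums without ribosomal protein genes. In overexpression, Gadd45a was at 44.74 FPKM in GFP-OE cells and 96.19 FPKM in KLF3-OE cells, 2.15-fold higher, a log2(FPKM + 1) difference of 1.09. That call was lost under quantile normalization (0.93), under equal sums without ribosomal protein genes (0.86) and when the trend with genomic span was removed (0.60).

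Gadd45b (ENSMUSG00000015312, chr10:80930091-80932204, plus strand) stayed within 2-fold in both experiments. Its level was 4.49 FPKM in KLF3-GFP-negative cells and 9.17 FPKM in the positive ones, with a plain ratio of 2.04 and a log2(FPKM + 1) difference of 0.89, and it was called with a pseudocount of 0.1 (1.01) or with a floor in place of a pseudocount (1.03). In GFP-OE cells it was at 16.79 FPKM and in KLF3-OE cells at 30.53 FPKM, a ratio of 1.82 and a difference of 0.83, which passed 2-fold under median-ratio scaling (1.03) and was 0.61 under equal sums and 0.32 with the span trend removed.

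The makeup of the GADD45 transcripts is given by their shares within each condition. In KLF3-GFP-negative cells Gadd45a held 68.3% of the summed FPKM of the 3 genes, Gadd45b 22.8% and Gadd45g 8.93%. In KLF3-GFP-positive cells Gadd45g was the leading member with 55.5%, ahead of Gadd45a with 26.5% and Gadd45b with the rest. In overexpression Gadd45a kept the lead, with 71.2% in GFP-OE and 66.2% in KLF3-OE cells, while the share of Gadd45g was 2.12% and 12.9%. The summed level was 19.7 and 51.06 FPKM in sorted cells (2.59 times) and 62.86 and 145.41 FPKM in overexpression (2.31 times).

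**Figure D1:**
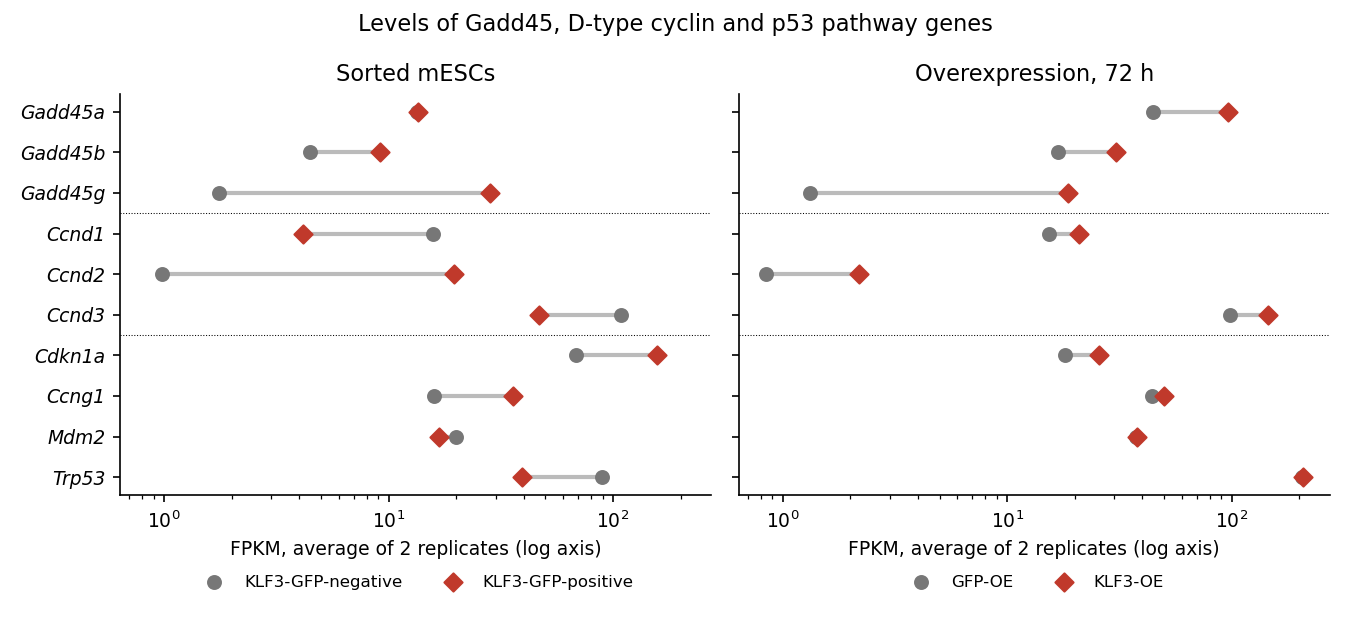
FPKM of the 10 genes on a log axis, as the authors' average of 2 replicates, in sorted mESCs (left) and after 72 h of induction (right). Grey circles are KLF3-GFP-negative or GFP-OE cells, and red diamonds are KLF3-GFP-positive or KLF3-OE cells. There are no error bars since the averages hold none. Gadd45g is far to the right in red in both panels (28.34 and 18.69 against 1.76 and 1.33 FPKM), and Ccnd1, Ccnd3 and Trp53 are more than 2-fold lower in red in the left panel.

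The D-type cyclin genes split in sorted cells. Ccnd2 (ENSMUSG00000000184, chr6:127125162-127152193, minus strand) was at 0.98 FPKM in KLF3-GFP-negative cells and 19.64 FPKM in the positive ones, with a difference of 3.38 on the log2(FPKM + 1) scale, rank 86 from the highest. Ccnd1 (ENSMUSG00000070348, chr7:144929931-144939869, minus strand) was at 15.73 FPKM in KLF3-GFP-negative cells and 4.16 FPKM in KLF3-GFP-positive cells, 3.78-fold lower, with a difference of -1.70. Ccnd3 (ENSMUSG00000034165, chr17:47505051-47599691, plus strand), the most abundant D-type cyclin gene in all 4 conditions, was at 108.57 and 46.88 FPKM, 2.32-fold lower, with a difference of -1.19. Ccnd2 thus went from the lowest to the second place among the D-type cyclin genes, above Ccnd1.

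In overexpression no D-type cyclin gene passed 2-fold. Ccnd1 was at 15.30 FPKM in GFP-OE and 20.90 FPKM in KLF3-OE cells (difference 0.43), and Ccnd3 at 98.61 and 145.29 FPKM (difference 0.55), which passed 2-fold when the trend with genomic span was removed (1.03). Ccnd2 was at 0.84 FPKM in GFP-OE cells and 2.18 FPKM in KLF3-OE cells, past 2-fold as a plain ratio but a log2(FPKM + 1) difference of 0.79, which passed 2-fold with a pseudocount of 0.1 (1.28), with a floor (1.38), under quantile normalization (1.01) and with the span trend removed (1.08). At such levels the fold depends on the pseudocount, and the Ccnd2 level in KLF3-OE cells remained above only 17.6% of the genes tested.

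Ccnd3 made up 86.7% of the summed FPKM of the D-type cyclin genes in KLF3-GFP-negative cells and 66.3% in KLF3-GFP-positive cells. Over the same pair the share of Ccnd2 was 0.782% and 27.8%, and that of Ccnd1 12.6% and 5.89%. The sum itself was 125.28 and 70.68 FPKM, so that KLF3-GFP-positive cells had 0.564 times the summed FPKM of KLF3-GFP-negative cells. In overexpression the shares moved little, with Ccnd3 at 85.9% and 86.3%, and the sum was 114.75 and 168.37 FPKM, 1.47 times.

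**Figure D2:**
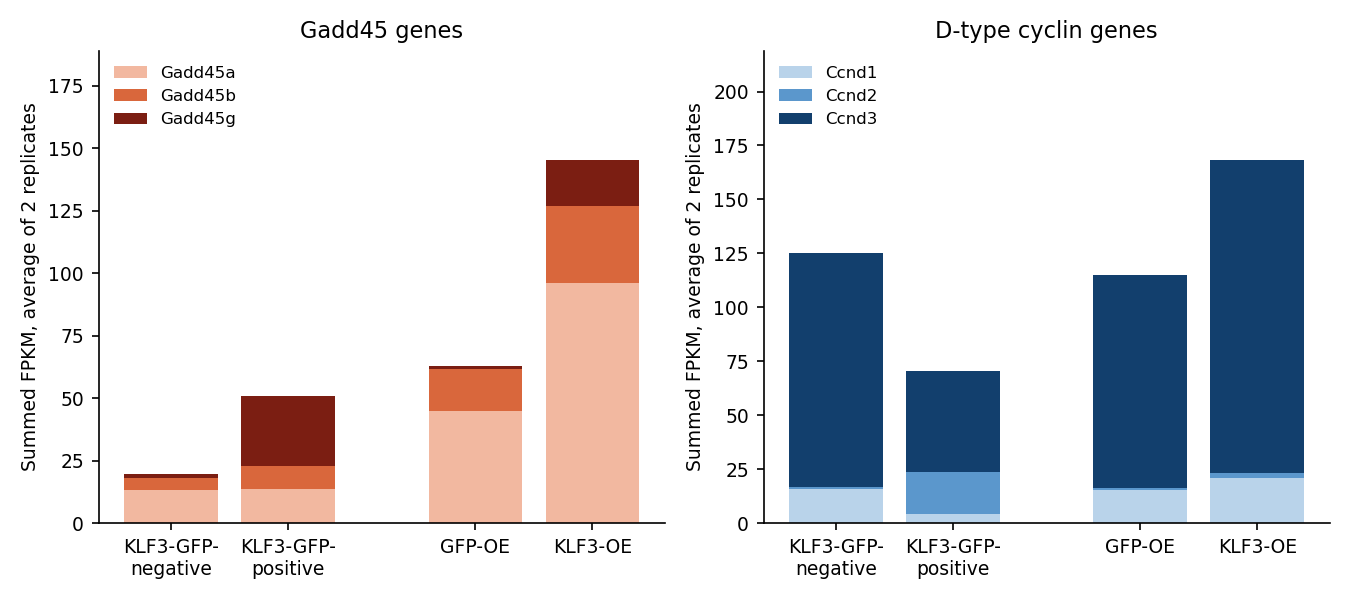
Summed FPKM of the 3 GADD45 genes (left) and the 3 D-type cyclin genes (right) in each condition, stacked by gene, as the authors' average of 2 replicates and without error bars. Gadd45g takes 55.5% of the left sum in KLF3-GFP-positive cells, Ccnd2 takes 27.8% of the right sum there, and the makeup of the right sum is close to unchanged in overexpression, with Ccnd3 at 85.9% and 86.3%.

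CDK4 and CDK6 are the kinases that D-type cyclins activate, and their genes were looked up after the values were seen. Cdk4 was at 620.49 and 579.45 FPKM in the negative and positive sorted cells and at 638.96 and 1007.74 FPKM in GFP-OE and KLF3-OE cells. Cdk6 was low throughout, at 2.51 and 1.60 FPKM in sorted cells and 4.85 and 7.25 FPKM in overexpression. Neither kinase gene passed 2-fold in either experiment.

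Among p53 and its targets, Trp53 (ENSMUSG00000059552, chr11:69580359-69591873, plus strand) was at 89.27 FPKM in KLF3-GFP-negative cells and 39.23 FPKM in KLF3-GFP-positive cells, 2.28-fold lower, with a log2(FPKM + 1) difference of -1.17. Cdkn1a (ENSMUSG00000023067, chr17:29090979-29100722, plus strand) went the other way, from 68.61 to 156.7 FPKM, 2.28-fold higher, with a difference of 1.18. Ccng1 (ENSMUSG00000020326, chr11:40748552-40755311, minus strand), which encodes cyclin G1, an interaction partner of MDM2, was at 15.97 and 35.77 FPKM, 2.24-fold higher, with a difference of 1.12 that missed the limit under quantile normalization (0.96) and equal sums without ribosomal protein genes (0.97). Mdm2 (ENSMUSG00000020184, chr10:117688888-117710758, minus strand) was at 19.99 and 16.75 FPKM, a difference of -0.24.

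Cdkn1a and Ccng1 thus rose in sorted cells and Mdm2 did not, while the mRNA of p53 itself fell. The ratio of Cdkn1a to Trp53 FPKM was 0.769 in KLF3-GFP-negative cells and 3.99 in KLF3-GFP-positive cells, and that of Ccng1 to Trp53 was 0.179 and 0.912. Cdkn1a and Ccng1 kept nearly the same ratio to each other, 4.30 and 4.38. The activity of p53 is set largely at the level of the protein, which was not measured here.

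After KLF3 induction these 4 genes stayed within 2-fold. Trp53 was at 205.14 FPKM in GFP-OE and 207.69 FPKM in KLF3-OE cells, above 96.5% and 95.3% of the genes tested. Cdkn1a was at 18.04 and 25.54 FPKM (difference 0.48), Ccng1 at 44.34 and 50.06 FPKM (difference 0.17) and Mdm2 at 37.51 and 38.07 FPKM (difference 0.02). The difference of Trp53 was 0.02, and its sign turned under quantile normalization (-0.44) and equal sums without ribosomal protein genes (-0.21), as did those of Mdm2 (-0.20) and Ccng1 (-0.05) under equal sums.

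Counted over the set, 4 genes were upregulated in KLF3-GFP-positive cells (Gadd45g, Ccnd2, Cdkn1a and Ccng1), against 13.8% of all 9212 genes tested, and 3 were downregulated (Ccnd1, Ccnd3 and Trp53), against 8.32%. The median difference over the 10 genes was 0.45, and over all genes tested 0.03. In KLF3-OE cells 2 genes were upregulated (Gadd45g and Gadd45a), against 6.60% of 11179 genes tested, and 0 were downregulated, against 10.1%. The median of the 10 genes was 0.52, and that of all genes -0.18. Since the 10 genes were chosen with earlier results of these data known, these counts and medians do not test the set against all genes.

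All genes together were shifted in overexpression, and the shift depended on the scaling, with a median of 0 under median-ratio scaling and -0.37 under equal sums without ribosomal protein genes. Relative to the reported median, the differences were 3.26 for Gadd45g, 1.27 for Gadd45a, 1.005 for Gadd45b and 0.97 for Ccnd2, with Trp53 and Mdm2 the lowest at 0.20. The 738 genes called higher and 1133 called lower became 1164 and 695 under median-ratio scaling, 800 and 711 under quantile normalization, 430 and 1857 under equal sums, and 794 and 587 with the span trend removed.

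The shift also moved with the length of the gene. When genes were put in 5 groups of like size by genomic span, the median difference in overexpression was 0.35 in the shortest group, up to 7406 bases, and was lower in each longer group, down to -0.49 in the longest. Gadd45a, Gadd45b, Gadd45g and Ccng1 are in the shortest group and Ccnd3, at 94641 bases, is in the longest. The part of gene length in the differences of Gadd45a and Gadd45b was not tested beyond removing the trend, which left Gadd45g at 2.54, Gadd45a at 0.60 and Gadd45b at 0.32. In sorted cells the medians of these groups lay between -0.03 and 0.12.

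**Figure D3:**
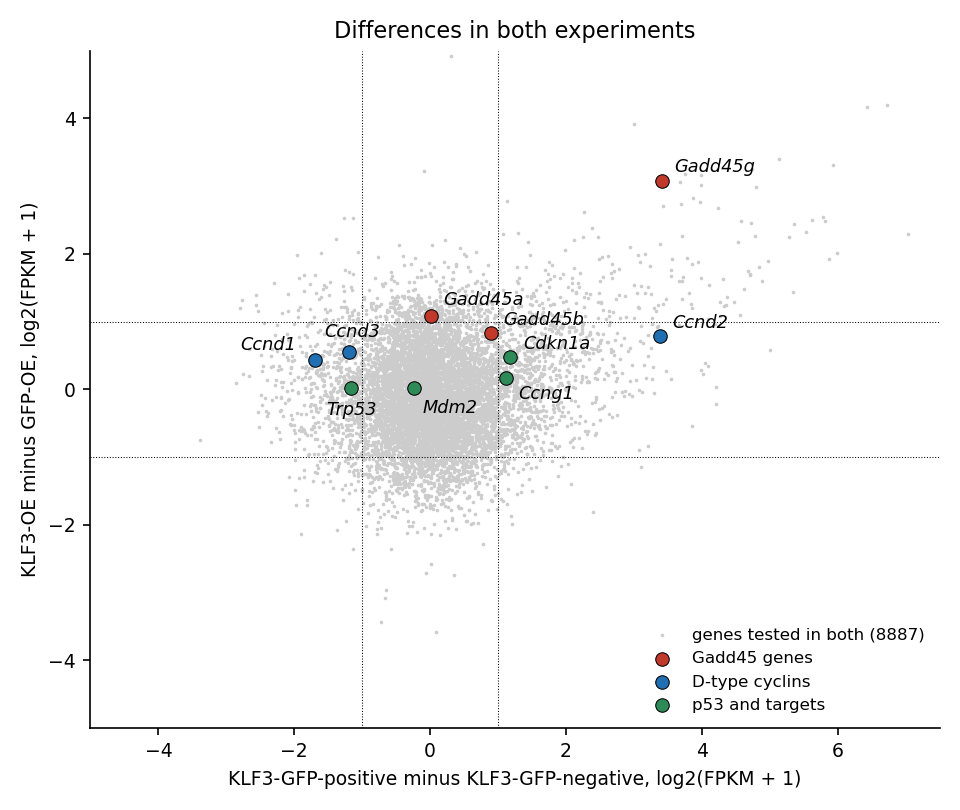
Difference of log2(FPKM + 1) in the sort, KLF3-GFP-positive minus KLF3-GFP-negative (x axis), and in overexpression, KLF3-OE minus GFP-OE (y axis), for 8887 genes tested in both experiments (grey, 3 of them outside the axes), with the 10 genes in colour and dotted lines at 2-fold. On this scale Gadd45g is the one among the 10 beyond both lines, at 3.41 and 3.08, Ccnd2 is far right at 3.38 but below the upper line at 0.79, and Ccnd1, Ccnd3 and Trp53 lie left of the lower 2-fold line in sorted cells and above 0 in overexpression, where the sign of Trp53 turned under quantile normalization and equal sums.

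In all, 227 of 8887 genes tested in both experiments were higher past 2-fold in both, and of the set Gadd45g was among them. Ccnd2 joined it with a pseudocount of 0.1, with a floor, under quantile normalization and with the span trend removed. Of 721 genes lower past 2-fold in KLF3-GFP-positive cells, 356 were above 0 in overexpression, and the 3 such genes of the set (Ccnd1, Ccnd3 and Trp53) were all above 0 there, Trp53 by 0.02 only.

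The genes whose pair of differences was nearest to that of Gadd45g over the 2 comparisons were Clu, which encodes the secreted chaperone clusterin, and the simple epithelial keratin genes Krt18 and Krt8. Clu was at 6.22 and 91.41 FPKM in sorted cells and 12.67 and 113.26 FPKM in overexpression, a distance of 0.268 from Gadd45g. Krt18 was at 12.72 and 183.07 FPKM and then 36.62 and 339.57 FPKM, and Krt8 at 18.3 and 206.34 FPKM and then 26.27 and 176.36 FPKM. Each was much higher than Gadd45g in level, and the likeness is only in the size of the differences.

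Nearest to Ccnd2 were Gas6, which encodes a ligand of the TAM receptor kinases, Plod2, a collagen lysyl hydroxylase gene, and Fhl1, a LIM domain gene. Gas6 was at 1.04 and 21.29 FPKM in sorted cells and 6.1 and 11.61 FPKM in overexpression, at a distance of 0.0785. Plod2 was at 2.59 and 38.36 FPKM and then 11.68 and 20.17 FPKM, and Fhl1 at 0.56 and 14.8 FPKM and then 8.5 and 16.97 FPKM. With only 2 differences per gene, many genes lie near any given one.

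Other genes around p53 were taken from lists that hold none of the 10. Of 17 tested regulators of p53, 1 was higher and 1 lower past 2-fold in KLF3-GFP-positive cells, beside 13.8% and 8.32% of all genes, with a median of -0.11. The higher one was Cdkn2a, whose locus encodes the MDM2 inhibitor p19ARF and the CDK inhibitor p16INK4a, at 9.44 and 37.5 FPKM. The lower one was Pml, a gene for a nuclear body protein, at 14.86 and 5.2 FPKM, and Usp7, a deubiquitinase acting on p53 and MDM2, was next in size at 18.75 and 10.75 FPKM (-0.75).

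In KLF3-OE cells 1 of 19 p53 regulators was higher and 6 were lower, beside 6.60% and 10.1% of all genes. Their median was -0.62 against -0.18 for all genes. The lower ones were led by Mdm4, which encodes a p53 inhibitor related to MDM2, at 43.87 and 15.45 FPKM, by the acetyltransferase gene Ep300 at 8.75 and 2.86 FPKM, and by the checkpoint kinase gene Chek2 at 32.93 and 14.6 FPKM. This count was 2 under median-ratio scaling and 0 once the span trend was removed, and the median was then -0.27. With Mdm2 within 2-fold, the ratio of Mdm2 to Mdm4 FPKM was 0.855 in GFP-OE and 2.46 in KLF3-OE cells. Within the sorted cells, whose libraries were of another type, the same ratio was 3.22 in negative and 3.65 in positive cells. The ratios of the 2 experiments are not compared.

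The wider set of p53 target genes went in both directions. In KLF3-GFP-positive cells 7 of 44 tested were higher and 8 lower, beside 13.8% and 8.32% of all genes, with a median of -0.07. The largest differences were those of Sat1, a polyamine acetyltransferase gene, at 45.86 and 238.07 FPKM, Shisa5, which encodes a protein of the endoplasmic reticulum, at 7.29 and 39.11 FPKM, and Dcxr, a xylulose reductase gene, at 26.07 and 100.31 FPKM. The 8 lower targets were Bax, Perp, Plk3, Pmaip1, Ptp4a3, Rrm2b, Sfn and Trp53i11, named after their values were seen. Targets that promote apoptosis were among both, with Bax (656.78 and 273.4 FPKM), Perp and Pmaip1 lower, and Apaf1 (5.79 and 18.34 FPKM) and the death receptor gene Tnfrsf10b (7.06 and 23.13 FPKM) higher, while Bbc3, Siva1, Aen and Pidd1 stayed within 2-fold. The count of lower targets was 13 with a pseudocount of 0.1 or a floor and 5 with a minimum mean of 5 FPKM, where the median was 0.06.

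In KLF3-OE cells 6 of 45 p53 targets were higher and 2 lower, beside 6.60% and 10.1% of all genes, with a median of -0.09. The leading ones were Phlda3, which encodes an inhibitor of AKT, at 26.35 and 91.19 FPKM, Dcxr at 16.6 and 54.15 FPKM and Apaf1, the gene for the apoptosome scaffold, at 7.41 and 21.65 FPKM. Sfn, the stratifin gene, was higher in KLF3-OE cells (88.9 and 221.97 FPKM) and lower in KLF3-GFP-positive cells (48.82 and 19.61 FPKM). The sign of the median depended on the setting, with -0.30 under equal sums without ribosomal protein genes but 0.10 under median-ratio scaling, 0.16 under quantile normalization and 0.02 with a minimum mean of 5 FPKM. The count of lower targets was 4 under equal sums, with a pseudocount of 0.1 or with a floor, 1 under median-ratio scaling, and 0 under quantile normalization or with a minimum mean of 5 FPKM.

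**Figure D4:**
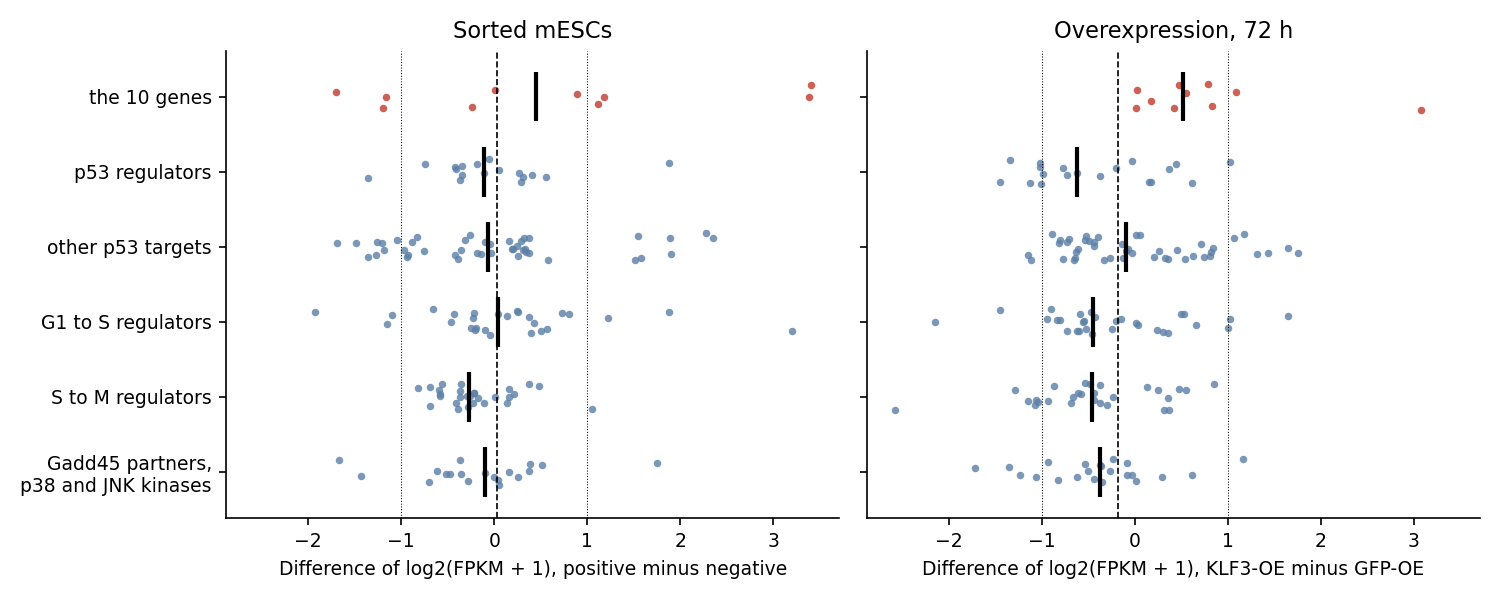
Difference of log2(FPKM + 1) for the 10 genes (red) and for the tested genes of 5 pathway lists (blue) in sorted mESCs (left) and overexpression (right), 1 point per gene, spread vertically only for visibility. Black bars are medians, the dashed line is the median of all genes tested (0.03 and -0.18) and dotted lines mark 2-fold. The 10 genes spread to both sides on the left, and the medians of the regulator lists lie left of the dashed line on the right, at -0.37 to -0.62 apart from the p53 targets at -0.09.

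Around the D-type cyclins, 3 of 27 genes acting from G1 to S phase were higher and 3 lower in KLF3-GFP-positive cells, beside 13.8% and 8.32% of all genes. Their median of 0.04 was -0.09 under quantile normalization, -0.08 under equal sums and -0.06 with the span trend removed. Rb1, which encodes the retinoblastoma protein that cyclin D kinases phosphorylate, was at 1.18 and 19.05 FPKM, a difference of 3.20. Cdkn1c, the gene for the CDK inhibitor p57, was at 22.93 and 5.3 FPKM, and the third largest difference was that of Cdkn2a. In overexpression 3 of 30 were higher and 2 lower, beside 6.60% and 10.1% of all genes, with a median of -0.44, and Cdkn1c was then higher, at 8.07 and 27.43 FPKM. The 3 include Cdkn2b, at 0.86 and 2.72 FPKM, whose difference of 1 lies at the limit, so only Cdkn1c and Cdkn2a were past it. The lower ones were Tfdp1, the partner of E2F factors, at 112.06 and 24.59 FPKM and Rbl2, a relative of Rb1, at 4.83 and 1.13 FPKM. Rb1 itself was at 3.63 and 1.6 FPKM in overexpression, a difference of -0.83, opposite in sign to that in sorted cells. The lower count was 5 with a pseudocount of 0.1, a floor or equal sums and 1 with a minimum mean of 5 FPKM or the span trend removed, the higher count was 1 under equal sums, and the median ranged from -0.66 under equal sums to -0.16 with the span trend removed.

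Few genes acting from S to M phase passed 2-fold in sorted cells, where 1 of 28 was higher and 0 lower, beside 13.8% and 8.32% of all genes. Of the 28, 20 were below 0, and the median was -0.27 against 0.03 for all genes. This median was -0.40 under quantile normalization and -0.41 under equal sums, where that of all genes was -0.09 each time. The higher one was the proliferation marker gene Mki67, at 1.95 and 5.13 FPKM, a call that was lost under quantile normalization and equal sums. The next 2 were the checkpoint kinase gene Ttk, at 6.01 and 2.98 FPKM (-0.82), and the anaphase activator gene Cdc20, at 239.83 and 148.29 FPKM (-0.69). In overexpression 0 of 28 were higher and 6 lower, beside 6.60% and 10.1% of all genes, with a median of -0.46 against -0.18 for all genes. The lower ones were led by Wee1, a kinase that holds CDK1 inactive, at 11.62 and 1.11 FPKM, and the spindle checkpoint genes Bub1 at 66.84 and 26.7 FPKM and Bub1b at 72.41 and 32.1 FPKM. The count of lower genes was 2 under median-ratio scaling and 2 with the span trend removed.

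Among partners of GADD45 proteins and the p38 and JNK kinases, 1 of 19 was higher and 2 lower in KLF3-GFP-positive cells. The shares of all genes were 13.8% and 8.32%, and the median of the list was -0.10. Jun, whose product is a target of JNK, was at 0.26 and 3.23 FPKM, the phosphatase gene Dusp1 at 18.04 and 4.97 FPKM and Mapk13, a p38 gene, at 10.61 and 3.29 FPKM. With a minimum mean of 5 FPKM, which Jun did not reach, 0 were higher and the median was -0.43. In overexpression 1 of 22 was higher and 4 lower, beside 6.60% and 10.1% of all genes, with a median of -0.37 against -0.18 for all genes. The JNK genes Mapk8 (10.98 and 2.64 FPKM) and Mapk9 (14.92 and 5.25 FPKM) and the thymine DNA glycosylase gene Tdg (18.69 and 7.4 FPKM) had the largest differences. The higher one was Gadd45gip1, which encodes a mitochondrial protein that binds GADD45 proteins, at 35.22 and 80.24 FPKM, named after its values were seen, and its call was lost under equal sums and with the span trend removed.

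Cell type markers moved with these differences. Of all genes tested, 13.8% were higher and 8.32% lower past 2-fold in sorted cells, and 6.60% and 10.1% in overexpression. In KLF3-GFP-positive cells 14 of 14 tested primitive endoderm markers, the extraembryonic lineage marked by Gata4, Gata6 and Sox17, were higher, with differences from 2.28 to 7.04, and the summed FPKM of the 15 markers listed was 47.58 in the negative and 1869.59 in the positive cells. Dab2 alone was at 0.78 and 232.84 FPKM, and Cubn, Foxa2 and Ttr were listed at the lowest value, 0.1, in KLF3-GFP-negative cells. Of the tested markers, Dab2, Cubn, Foxa2, Sox7, Pdgfra, Col4a2 and Lama1 were below 1 FPKM there. They met the minimum mean only through the positive cells, so for them the filter allowed only a higher level, and the count is no test. In KLF3-OE cells 15 of 15 were higher by 1.07 to 2.55, with sums of 205.6 and 860.93 FPKM. Foxa2, Pdgfra, Sox7 and Ttr were likewise below 1 FPKM in GFP-OE cells and met the minimum mean only through KLF3-OE cells. The part of the primitive endoderm markers in the results for Gadd45g, Ccnd2, Rb1 and the other genes was not tested.

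Of the markers of mESCs, 0 of 10 were higher and 6 lower in KLF3-GFP-positive cells, with sums of 21960.7 and 11486 FPKM, and 0 were higher and 3 lower in KLF3-OE cells, with sums of 6466.42 and 8588.96 FPKM. Dppa5a alone made up most of these sums, at 20569.1 and 10977.1 FPKM in sorted cells and 3793.78 and 6334.07 FPKM in overexpression, where 7 of the 10 markers were below 0. Pou5f1, which encodes the pluripotency factor OCT4, was at 114.62 and 59.43 FPKM in sorted cells and 883.19 and 989.69 FPKM in overexpression, so mESC markers were expressed in every condition. Trophoblast markers, among them Krt8 and Krt18, were higher for 3 of 6 and lower for 1 in sorted cells and higher for 3 of 8 in overexpression, with sums of 39.76 and 398.7 FPKM and of 108.92 and 555.55 FPKM. Krt8 and Krt18 made up most of the higher sums, at 206.34 and 183.07 FPKM in KLF3-GFP-positive cells and 176.36 and 339.57 FPKM in KLF3-OE cells. Of the tested markers 2 were below 0 in each experiment, with Tfap2c in both (-0.94 and -0.95). Of 12 fibroblast and feeder markers, 4 were listed for sorted cells with 0 tested, at sums of 1.13 and 0.71 FPKM, and 7 for overexpression with 3 tested and 0 past 2-fold, at sums of 12.73 and 20.73 FPKM, where Col1a1 was at 0.23 FPKM in GFP-OE and 0.29 FPKM in KLF3-OE cells. Macrophage and blood markers summed to 5.58 and 16.83 FPKM in sorted cells, most of it Cd68, and to 13.4 and 9.57 FPKM in overexpression. In such bulk samples, more cells of a type and more RNA per cell cannot be told apart.

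Some facts of the tables bear on all these values. Klf3 was at 107.04 and 122.29 FPKM in sorted cells and 58.66 and 47.76 FPKM in GFP-OE and KLF3-OE cells. In sorted cells this could include reads from the part of Klf3 in the transgene, which both populations carry. The Klf3 level is no check on the induction, since the induced sequence was codon-optimized, nor on the sort, which went by the fusion protein. Ribosomal protein genes took 30.6% and 26.3% of the summed FPKM in sorted cells and 29.0% and 39.0% in overexpression. The Y-linked genes Eif2s3y, Uty and Ddx3y were at 30.87, 3.56 and 3.34 FPKM in GFP-OE cells and 1.67, 0.1 and 0.1 FPKM in KLF3-OE cells, whereas no such gap was seen in sorted cells. The inserted gene and the clone cannot be told apart in the overexpression experiment, and the part of the clone in the results was not tested.

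Overlapping genes could share reads with some of the 10, since Smart-seq2 keeps no strand and the strand setting of the counting is not given in the sources used here. On the opposite strand in GENCODE M21, Ccnd1 shares 1100 exonic bases with Oraov1, at 4.93 and 6.21 FPKM in sorted cells and 7.48 and 6.75 FPKM in overexpression. Ccnd3 shares 361 bases with Bysl, at 18.64 and 15.16 FPKM and 13.94 and 19.21 FPKM. Gadd45a (337 bases), Ccnd2 (372 and 368 bases) and Cdkn1a (273 bases) overlap non-coding or unclassified transcripts that were not analysed here, while Gadd45b, Gadd45g, Ccng1, Mdm2 and Trp53 share no exonic bases with another annotated gene.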

How the data were processed

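RNA-seq was performed on 8 mESC samples, 500 sorted cells each with Smart-seq2 or poly(A) RNA with a directional kit after induction. Per the labels, the authors' notes list STAR (version 2.6.0), Cufflinks (version 2.2.1) and mm10. The FPKM values deposited by the authors are averages of 2 replicates per condition, for protein-coding genes, with 2 decimals and 0.1 as the lowest value. Read counts, depth and replicate values were not analysed here, so no test, error or interval was computed.

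Genes whose 2 conditions averaged 1 FPKM or more were compared by the difference of log2(FPKM + 1), KLF3-GFP-positive minus KLF3-GFP-negative or KLF3-OE minus GFP-OE, and called past 2-fold. The 2 tables were never set against each other in level. From 5 pathway lists, the 3 genes with the largest absolute difference in each experiment were named, and for Gadd45g and Ccnd2 the 3 genes with the nearest pair of differences by Euclidean distance. Genes and lists were chosen with earlier results of these data known. Calculations were done in Python 3.11.15 with NumPy 2.4.6, pandas 2.3.3 and statsmodels 0.14.6 (lowess with a fraction of 0.3 for the span trend), and were tested on simulated data. Alternatives were a pseudocount or floor of 0.1, a minimum mean of 5 or none, median-ratio scaling, quantile normalization, equal sums without ribosomal protein genes and removal of the span trend.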

Additional observations from a re-analysis of the deposited data

How the results depend on the processing

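Over 8 alternatives, 139 of 159 recomputed differences of the 10 genes kept both their sign and whether they were called, whatever the change in size. A further 5 lost the call, 8 gained it, 7 that were not called changed sign, and 0 changed the sign of a call. Gadd45g stayed above 2-fold under each alternative, at 3.28 to 4.01 in sorted cells and 2.54 to 3.81 in overexpression, as did Ccnd2 in sorted cells (3.27 to 4.32), Ccnd1 (-1.92 to -1.70), Ccnd3 (-1.35 to -1.19), Trp53 (-1.32 to -1.17) and Cdkn1a (1.03 to 1.19). The median of the 10 genes in sorted cells was 0.31 under both quantile normalization (0.315) and equal sums without ribosomal protein genes (0.312). In overexpression it was 0.72 under median-ratio scaling, 0.30 under equal sums (0.296) and 0.40 with the span trend removed, and under equal sums 1 gene was called, Gadd45g. Ccnd2 was not tested in overexpression with a minimum mean of 5 FPKM. With that minimum 840 genes were higher and 417 lower in sorted cells, and in overexpression 734 were lower, while 1819 were lower with a pseudocount of 0.1 and 1912 with a floor. No paired analysis was possible because the files hold 1 average per condition, and leaving out a replicate was not possible for the same reason. The spread between replicates and the depth are unknown, so how far any of these values would repeat cannot be judged.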
